A study of Mus musculus with 5 samples.

Results

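Collagen genes were taken as every gene whose symbol is Col, a number, the letter a and a number, with at least 20 UMIs over all labelled cells. A UMI (unique molecular identifier) stands for 1 counted mRNA molecule. Of 18132 gene symbols in the count tables, 43 have such a name and 38 pass the minimum. The 5 below it were Col9a1 with 4 UMIs, Col25a1 with 7, Col4a6 with 8, Col6a4 with 9 and Col19a1 with 13. The tables of days 0, 2, 5 and 7 list 37, 36, 36 and 38 of the 38.

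The cells came from the tibialis anterior, a muscle of the shin, of C57Bl/6 mice, and were sorted for viability with dyes once the muscle had been digested with enzymes. Day 0 was uninjured muscle of 4-month-old females, sequenced in 2 runs that share 1 matrix. The injured groups had received notexin, a myotoxic phospholipase that breaks down muscle fibres. Day 2 was taken from females of 7 months, day 5 from females of 4 months and day 7 from males of 4 months, so day cannot be told apart from age at day 2 or from sex at day 7. The labels do not say how many mice went into a matrix. There was 1 matrix per day, with 5176, 4903, 2164 and 5680 labelled cells and 22330278, 57723171, 5986701 and 40427212 UMIs. No difference between days therefore has a replicate or a test, and the 95% intervals in brackets cover counting error only. Pairs of days shared 9 to 40 cell barcodes, at most 0.816% of a day's cells. Levels are given in cpm, the UMIs of a gene per 1000000 UMIs of the summed cells. The libraries count 3' ends, 1 UMI per molecule, so levels were not scaled to gene length. Whether genes were captured equally well was not tested, which limits comparisons between genes. In summed cells, fewer cells that express a gene and less RNA per cell cannot be told apart.

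Collagen molecules are built from chains that wind around each other, and each chain has its own gene. The fibrillar types I, III and V form the fibres of connective tissue, type IV forms the network of basement membranes around vessels and muscle fibres, and type VI forms beaded filaments that link both. In muscle, fibro-adipogenic progenitors (FAPs), the stromal cells between the fibres, are known as a main source of fibrillar collagen, and tenocytes are the cells of tendon.

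RefSeq promoters (build GRCm38.p6) were at hand for 29 of the 38 genes, in 31 windows of 250 bases before to 50 after a start site. Each window was searched on both strands for the CCAAT box, for the TATA box motif TATAAA and for GGGCGG, the core of the GC box, all common near start sites, and matches of different motifs did not overlap in the windows shown. CCAAT was in 10 of the 31 windows (32.3%, against 37.4% of all 32851 promoters of the table) and TATAAA in 4 (12.9% against 13.6%). GGGCGG was in 20 (64.5% against 35.7%). The 250 bases before the start are shown for 3 genes that stood at least 2-fold above day 0 in FAPs on each day after injury, with motif matches in capitals. The windows were chr6:4505368-4505617 (plus strand) for Col1a2, chr1:45311288-45311537 (plus strand) for Col3a1 and chr16:57754738-57754987 (minus strand) for Col8a1.
Col1a2: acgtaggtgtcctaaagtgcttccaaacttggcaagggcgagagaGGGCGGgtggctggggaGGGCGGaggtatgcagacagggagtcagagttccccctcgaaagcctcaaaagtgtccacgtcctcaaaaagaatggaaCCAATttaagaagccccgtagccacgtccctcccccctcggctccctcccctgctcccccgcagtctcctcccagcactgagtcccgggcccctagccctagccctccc
Col3a1: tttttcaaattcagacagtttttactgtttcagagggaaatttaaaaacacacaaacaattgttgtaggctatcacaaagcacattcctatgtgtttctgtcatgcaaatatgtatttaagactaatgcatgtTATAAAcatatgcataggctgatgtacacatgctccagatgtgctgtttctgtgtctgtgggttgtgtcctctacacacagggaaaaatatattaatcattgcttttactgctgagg
Col8a1: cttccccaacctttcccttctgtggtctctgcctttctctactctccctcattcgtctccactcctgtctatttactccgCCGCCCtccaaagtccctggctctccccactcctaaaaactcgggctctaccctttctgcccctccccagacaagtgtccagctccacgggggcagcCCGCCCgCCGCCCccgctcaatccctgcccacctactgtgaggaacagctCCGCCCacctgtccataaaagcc
Printed in capitals, the Col1a2 window held GGGCGG at 205 to 200 and at 188 to 183 bases before the start and CCAAT at 109 to 105. In the Col3a1 window the single match was TATAAA at 117 to 112 bases before the start. Col8a1 had 4 matches of GGGCGG, all on the opposite strand, and no match of the other motifs. None of the 3 motifs was in all 3 windows. The genes were picked for their higher levels in FAPs, and a link between motifs and levels was not tested.

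Collagen mRNA was concentrated in FAPs and tenocytes. In cells labelled FAPs the 38 genes made up 1.28% of all UMIs at day 0 (1.27 to 1.28), 2.59% at day 2 (2.58 to 2.60) and 4.03% at day 5 (4.01 to 4.05). On day 7 the label FAPs held 6.01% (6.00 to 6.03), and FAPs (activated) held 2.83% (2.81 to 2.85). In tenocytes the day 0 share was 4.63% (4.57 to 4.70), with 3.51% (3.46 to 3.55) for day 7. Endothelial cells stood at 0.306%, 0.183%, 0.585% and 0.297% at days 0, 2, 5 and 7. Of each day's collagen UMIs, FAP labels held 86.3%, 94.4%, 95.6% and 92.9%. The 7 markers of FAPs that were listed for the check (Pdgfra, Dcn, Gsn, Lum, Dpt, Mfap5 and Serping1) summed to 72260, 11952 and 26352 cpm in the label FAPs at days 0, 2 and 5, above every other label of the same day. At day 7 they summed to 24146 cpm in the label FAPs and 35729 cpm in FAPs (activated), against 16012 in tenocytes. Markers of immune cells summed to 107, 2928, 410 and 1707 cpm in the label FAPs at days 0, 2, 5 and 7. The 6 tenocyte markers summed to 88.3, 388, 1166 and 1218 cpm there, each with a UMI on every day, and to 159 cpm in FAPs (activated). Most of that was Thbs4, at 52.1, 285, 1019 and 1162 cpm, while Tnmd stood at 14.8, 30.7, 45.3 and 27.1 cpm, against 3383 and 3516 in tenocytes of days 0 and 7. The part of either list in the results was not tested.

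**Figure D1:**
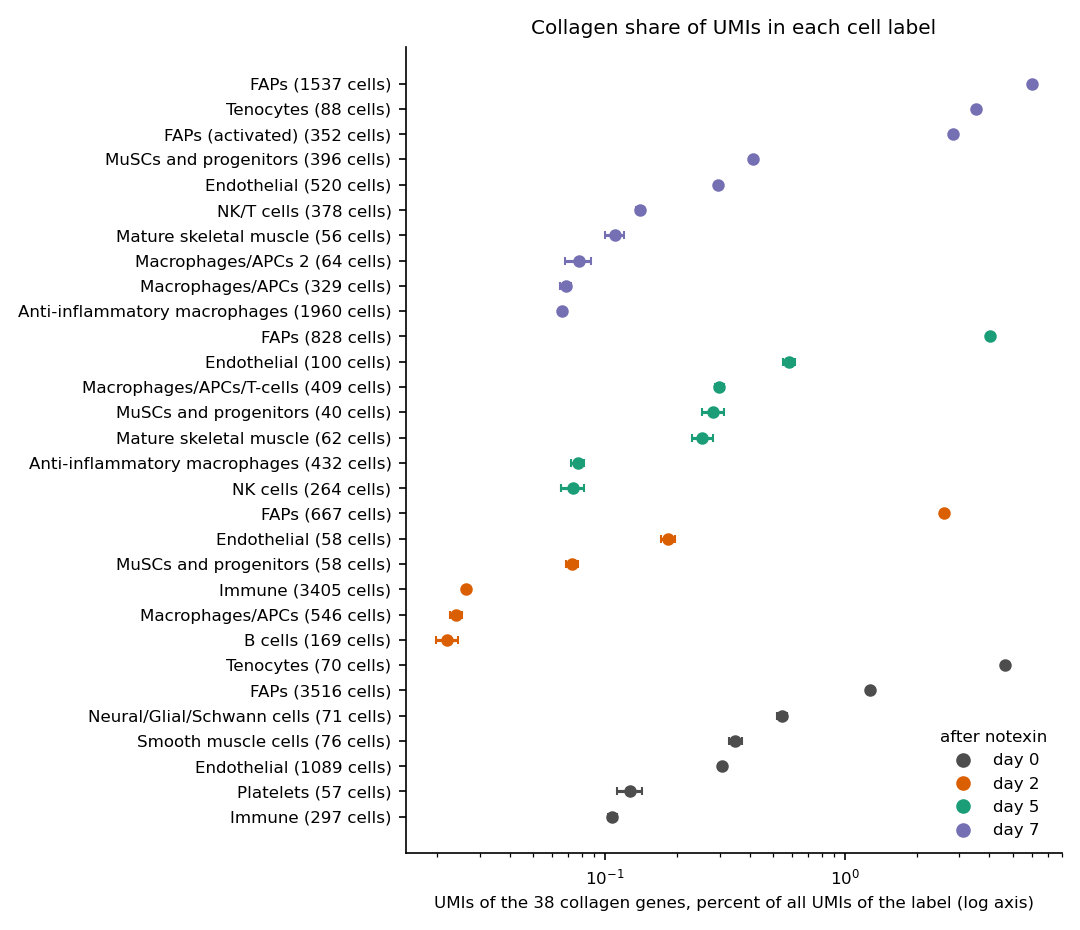
Share of all UMIs that belong to the 38 collagen genes (x axis, percent, log axis) in each label with at least 40 cells, coloured by day, where day 0 is uninjured muscle. Points are sums over cells and bars are 95% Clopper-Pearson intervals of counting error. FAP and tenocyte labels lie at 1.28% or above, and the next ones are the endothelial label of day 5 at 0.585% and the neural and glial label of day 0 at 0.544%.

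The same order of days was seen cell by cell. The median FAP devoted 1.04% of its UMIs to collagen at day 0, 2.54% at day 2, 2.69% at day 5 and 5.63% at day 7. With every cell thinned to 1000 UMIs, the medians were 1.00%, 2.50%, 2.8% and 5.6%. At day 5 the FAPs were widely spread, with the middle 80% of cells between 0.998% and 6.56%, against 1.28% to 4.16% at day 2. Cells with over 10% of their UMIs in collagen were 0.000% of FAPs at days 0 and 2, 0.242% at day 5 and 2.44% at day 7.

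Immune labels held collagen UMIs near the level that other FAP genes reached there. At day 0 the immune label had Col1a1, the main chain of type I collagen, in 6.73% (4.16 to 10.2) of cells after thinning, against 75.1% of FAPs. On days 2, 5 and 7 the immune shares were 3.40%, 10.5% and 7.69%, against 95.2%, 87.9% and 96.7% of FAPs. Without thinning they were 27.3%, 26.8%, 20.6% and 37.1% in immune cells and 96.0%, 100%, 95.1% and 99.6% in FAPs, at median depths of 4275, 9233, 1703.5 and 5857 UMIs against 4452, 12321, 2785 and 7007. The 7 FAP markers, which are no collagens, stood in the day 0 immune label at a median of 8.26% of their FAP level, with a range of 7.49% to 10.5%. The collagen genes stood at a median of 9.06% there. In the main immune label of day 2 the medians were 1.09% and 1.29%. The FAP markers ranged from 0.858% to 12.8% there, so the highest marker set a bar far above their median. None of 24 collagen genes lay above all of the FAP markers, which says little with such a bar. At day 0, 3 of 27 lay above, and no such count was made over all genes. In the label Macrophages/APCs/T-cells of day 5, the collagen genes held 0.299% of UMIs. Medians there were 5.65% for the FAP markers and 7.04% for the collagen genes, with Col8a1 and Col27a1 above all of the markers. The source of the collagen UMIs in immune labels was not tested.

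Every member was placed by the label and day with its highest level, among labels with at least 40 cells. FAP labels were highest for 16 of the 38 genes, tenocytes for 12, glial cells for 4, endothelial cells for 3, muscle progenitors for 2 and smooth muscle for 1. The same count was not made over all genes, so these counts only place the members. In tenocytes these were Col1a1, Col1a2, Col2a1, Col8a2, Col11a2 and Col28a1 at day 0 and Col11a1, Col12a1, Col13a1, Col22a1, Col23a1 and Col24a1 at day 7. In FAPs, Col6a5 peaked at day 0. Col4a4, Col5a1, Col5a3, Col6a6, Col14a1 and Col16a1 peaked at day 5. At day 7 the label FAPs was highest for Col3a1, Col5a2, Col6a1, Col6a2, Col6a3, Col7a1, Col8a1 and Col18a1, and FAPs (activated) for Col4a5. The endothelial label of day 5 was highest for Col4a1, Col4a2 and Col15a1. Col9a2, Col9a3, Col20a1 and Col27a1 were highest in the neural and glial label, Col26a1 and Col17a1 in muscle progenitors and Col4a3 in smooth muscle. For Col9a2, Col9a3 and Col17a1 the highest label held a single UMI of the gene, and for Col4a3 it held 3. For 17 of the 38 genes, those 4 included, the interval of the highest level overlaps that of the next label or day, so their place is uncertain. The other 13 were Col2a1, Col4a2, Col4a4, Col6a5, Col12a1, Col13a1, Col16a1, Col18a1, Col23a1, Col24a1, Col26a1, Col27a1 and Col28a1.

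**Figure D2:**
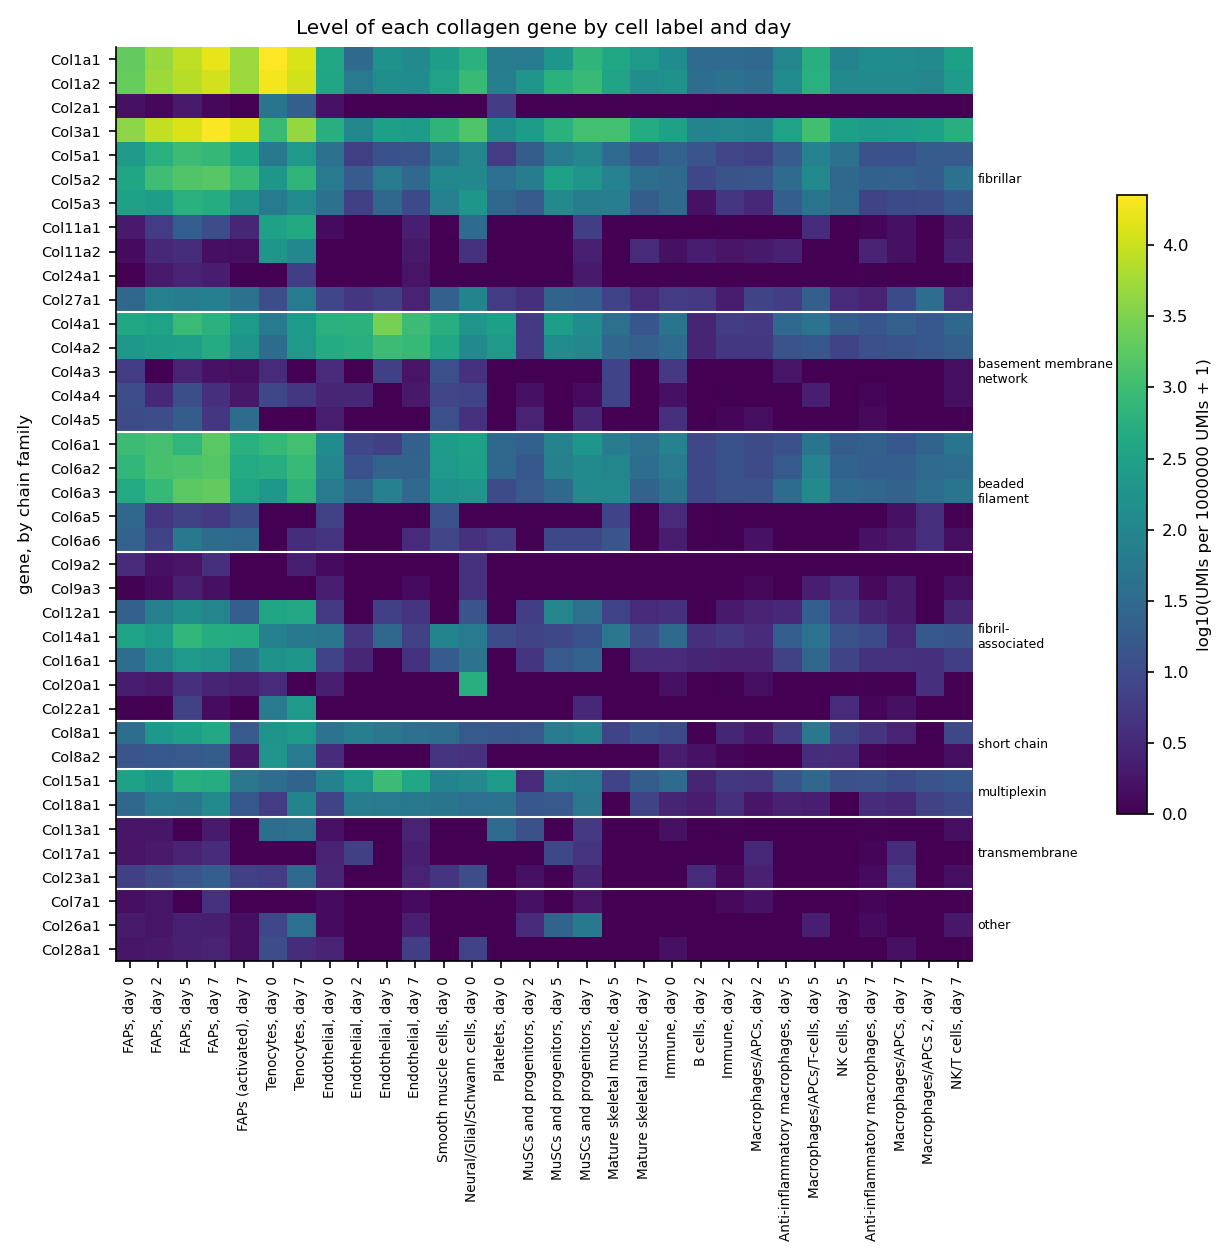
Level of each of the 38 genes (rows, grouped by chain family) in each label with at least 40 cells (columns, grouped by cell class and then day). Colour is log10 of the cpm plus 1. FAP and tenocyte columns are bright for the fibrillar genes, endothelial columns for Col4a1, Col4a2 and Col15a1, and single bright cells mark Col20a1 in glial and Col22a1 in tenocyte columns.

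In FAPs the fibrillar chains stood far above the uninjured level at each day. At days 2, 5 and 7, 8 of 9, 7 of 8 and 7 of 8 fibrillar genes with at least 20 UMIs were at least 2-fold higher than at day 0, and none was lower. Over all families, 12 of 33 genes were higher at day 2 (10.9% of all genes tested were) and 5 lower (14.1% of all genes). At day 5, 16 of 29 were higher (10.2% of all genes) and 3 lower (10.3%). At day 7, 16 of 33 were higher (9.99% of all genes) and 3 lower (10.6%). The median log2 ratio of the members was 0.32, 1.22 and 0.92 at days 2, 5 and 7, against -0.17, -0.01 and -0.08 over all genes. These comparisons share the day 0 cells. FAPs numbered 3516, 667, 828 and 1889 at days 0, 2, 5 and 7, with both labels of day 7 pooled.

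Type I and type III chains carried most of this. Col1a1 stood at 2008, 4848, 8706 and 14062 cpm at days 0, 2, 5 and 7, with log2 ratios to day 0 of 1.27 (1.25 to 1.29), 2.12 (2.09 to 2.14) and 2.81 (2.79 to 2.83). Its partner chain Col1a2 stood at 2148, 5240, 7842 and 10530 cpm. Col3a1, the single chain of type III collagen, stood at 4037, 9115, 13365 and 20538 cpm and was the collagen gene with the most UMIs in FAPs on all 4 days. Each later day had a higher level of these 3 genes, by less than 2-fold from day 2 to 5 and from day 5 to 7. Together they made up 64.2% of FAP collagen UMIs at day 0, then 74.0%, 74.3% and 81.4%. Type V chains, which set the width of fibrils, did not all move alike. Col5a1 stood at 231, 580, 958 and 733 cpm and Col5a2 at 379, 1031, 1495 and 1534 cpm. The third type V chain, Col5a3, stood at 307, 281, 591 and 443 cpm, with log2 ratios of -0.13, 0.95 and 0.53 to day 0. Among the rarer fibrillar genes, Col27a1 stood at 28.1, 82.1, 68.6 and 70.5 cpm. Col11a1, a chain best known from cartilage, stood at 1.10, 4.78, 19.2 and 8.39 cpm.

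**Figure D3:**
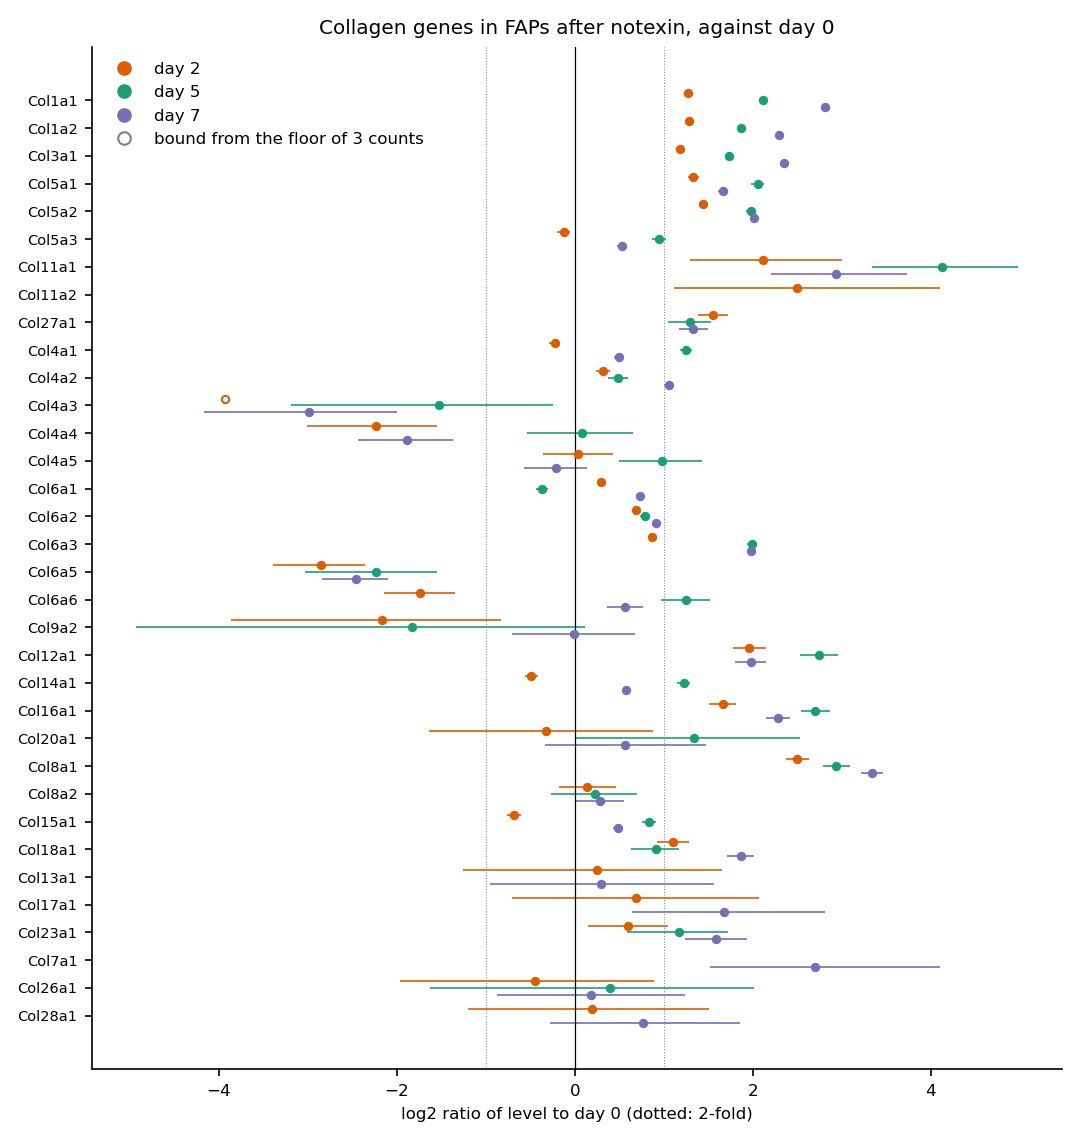
Log2 ratio of the level in FAPs at days 2, 5 and 7 to day 0 (x axis) for each collagen gene with at least 20 UMIs over both days (y axis, by family). Bars are 95% intervals of counting error, dotted lines mark 2-fold, and the open point is a bound. Points of the main fibrillar genes lie beyond 2-fold on all 3 days, except those of Col5a3, while Col4a3 and Col6a5 lie beyond 2-fold on the lower side.

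Fibril-associated chains were divided. At days 2, 5 and 7, 2, 4 and 2 of 5 tested were at least 2-fold higher than at day 0, and 1, 1 and 0 lower. Of both short chains, Col8a1 was at least 2-fold higher on all 3 days and Col8a2 on none, at 13.2, 14.6, 15.4 and 16.0 cpm. Col8a1, a short-chain collagen of vessel walls and matrix, stood at 36.7, 208, 282 and 370 cpm, with log2 ratios of 2.50 (2.37 to 2.64), 2.94 (2.79 to 3.09) and 3.33 (3.21 to 3.46). Col12a1 stood at 21.1, 81.8, 141 and 82.8 cpm. Col16a1 stood at 34.4, 109, 224 and 168 cpm. Both encode collagens that sit on fibril surfaces. A different course was seen for Col14a1, of the same family, which stood at 333, 237, 777 and 497 cpm. Against day 0 its log2 ratio was -0.49 (-0.57 to -0.42) on the earliest day after injury, and by day 5 it had reached 1.22 (1.15 to 1.29). The multiplexin Col15a1, found next to basement membranes, took a like course with 307, 191, 546 and 429 cpm. Its relative Col18a1, whose protein is the precursor of endostatin, stood at 28.2, 60.3, 52.8 and 102 cpm.

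Type VI chains, the beaded filaments, differed from each other. Col6a3 stood at 462, 842, 1829 and 1821 cpm, at least 2-fold above day 0 at days 5 and 7. Col6a2 stood at 757, 1219, 1303 and 1427 cpm. Col6a1 stood at 951, 1165, 736 and 1584 cpm and was below its day 0 level at day 5 only, with a log2 ratio of -0.37 (-0.44 to -0.31). Ratios between these chains stood apart in the day 5 library beyond FAPs too, as given below. The minor chain Col6a5 stood at 27.5, 3.80, 5.83 and 4.99 cpm and was at least 2-fold lower on all 3 days. Col6a6 was at 22.8, 6.84, 54.2 and 33.7 cpm.

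Among basement membrane chains of FAPs, 0, 1 and 1 of 5 tested were at least 2-fold higher at days 2, 5 and 7, and 2, 1 and 2 lower. Col4a1 and Col4a2 encode the chains of the common type IV network. Col4a1 stood at 387, 330, 920 and 544 cpm and Col4a2 at 209, 260, 293 and 435 cpm. The minor chain Col4a3 was lower on all 3 days and Col4a4 at days 2 and 7. Col4a3 had 81 UMIs (4.96 cpm) in day 0 FAPs and 0 at day 2, where the floor of 3 UMIs gives a log2 ratio of -3.93 or less. For Col4a4 the levels were 9.73, 2.06, 10.3 and 2.63 cpm. Also at least 2-fold lower at day 2 was Col9a2, with 40 UMIs at day 0 and 5 at day 2.

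Ratios between partner chains marked the day 5 library. The ratio of Col4a1 to Col4a2 UMIs in FAPs was 1.85, 1.27, 3.14 and 1.25 at days 0, 2, 5 and 7. In endothelial cells it was 1.26, 1.12, 3.07 and 1.16, and in all other labels together 1.47, 1.27, 2.42 and 1.22. The ratio of Col6a1 to Col6a2 in FAPs was 1.26, 0.956, 0.565 and 1.11, and in all other labels together 1.32, 1.01, 0.680 and 1.32. The first ratio was thus highest at day 5 in FAPs, in endothelial cells and in the pool of other labels. The second was lowest at day 5 in FAPs and in that pool, and in endothelial cells it was not computed for day 5. The cause was not tested. The day 5 values of Col4a1 and Col6a1 rest on this library alone. By contrast Col1a1 to Col1a2 in FAPs was 0.935, 0.925, 1.11 and 1.34, and Col5a1 to Col5a2 was 0.609, 0.562, 0.641 and 0.478.

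Between days 2 and 5, 9 of 26 FAP genes were at least 2-fold higher (15.9% of all genes) and 0 lower (11.6%). The 8 largest ratios at 50 cpm or more were Col6a6 at 2.99, Col14a1 at 1.71, Col15a1 at 1.51, Col4a1 at 1.48, Col6a3 at 1.12, Col5a3 at 1.07, Col16a1 at 1.04 and Col1a1 at 0.85. Col4a4 and Col11a1, under 50 cpm, were the other two. Between days 5 and 7, 3 of 32 were higher (9.69% of all genes) and 4 lower (11.9%), near the background. The median was 0.02. The 3 higher ones were Col6a1, Col7a1 and Col9a2, of which Col7a1 is a bound from 0 UMIs at day 5. The 4 lower ones were Col4a4, Col4a5, Col11a1 and Col22a1.

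At day 7 the authors split FAPs into 2 labels, and collagen was lower in the activated label for most genes. The labels are the authors' clusters of the same counts, so the contrast is a description. Of 30 genes, 21 were at least 2-fold lower in the 352 activated cells than in the 1537 others (13.6% of all genes were) and 2 were higher (5.57%). The median log2 ratio was -1.44, against -0.21 over all genes. Short chains and multiplexins differed the most. Col8a1 stood at 15.6 cpm in the activated label against 431, a log2 ratio of -4.79 (-5.33 to -4.29). Col15a1 stood at 52.1 against 493 cpm and Col18a1 at 15.2 against 117. Col6a3 stood at 376 against 2069 cpm, Col12a1 at 18.9 against 93.7 and Col16a1 at 48.3 against 188. The main fibrillar genes differed less, with Col1a1 at 4940 against 15628 cpm, Col1a2 at 5009 against 11478 and Col3a1 at 14359 against 21598. Thus Col3a1 made 2.91 UMIs per UMI of Col1a1 in the activated label and 1.38 in the other. Col14a1 stood at 477 against 501 cpm, a log2 ratio of -0.07 (-0.17 to 0.03). The 2 genes above were Col4a5, an X-linked basement membrane chain, at 33.1 against 3.82 cpm, and Col6a5 at 8.99 against 4.31. Both labels come from the same library. The median cell held 5056 UMIs in the activated label and 7669 in the other.

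**Figure D4:**
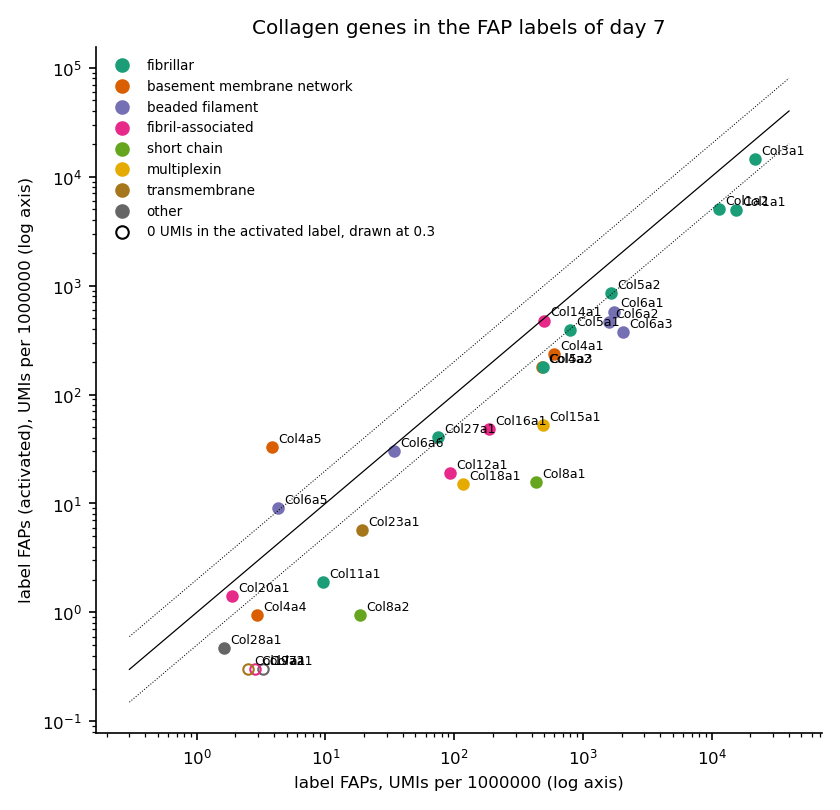
Level of each collagen gene in the label FAPs (x axis, cpm, log axis) and in FAPs (activated) (y axis, cpm, log axis) at day 7, coloured by family. The solid line marks equal levels and the dotted lines 2-fold, and open points are genes with 0 UMIs in the activated label, drawn at 0.3. Most points lie under the lower dotted line, Col14a1 lies on the solid line and Col4a5 above.

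Tenocytes showed a tendon pattern at day 0 and a flatter one at day 7. The label had 70 cells at day 0 and 88 at day 7, and 6 tenocyte markers summed to 24038 and 19162 cpm. Col1a1 stood at 22758 and 12714 cpm and Col1a2 at 19001 and 11334. Col3a1 stood at 911 and 4698 cpm, a log2 ratio of 2.37 (2.21 to 2.52), so that its ratio to Col1a1 was 0.04 at day 0 and 0.37 at day 7. Against day 0, 12 of 26 genes were at least 2-fold higher (12.9% of all genes) and 2 lower (7.8%). The higher ones of at least 50 cpm included Col18a1 (4.89 and 92.8 cpm), Col4a2 (34.2 and 227), Col4a1 (58.6 and 234), Col27a1 (9.77 and 61.9), Col5a1 (56.2 and 215) and Col22a1 (58.6 and 217), a collagen of the muscle-tendon junction. The lower ones were Col8a2, at 183 and 61.9 cpm, and Col2a1, the cartilage collagen, at 48.9 and 20.2 cpm. Col11a1 (310 and 441 cpm), Col11a2 (198 and 109) and Col12a1 (369 and 433) differed by less than 2-fold. In FAPs of the same days Col3a1 stood at 4037 and 20538 cpm. The 7 FAP markers summed to 53743 and 16012 cpm in tenocytes. Set against their FAP level, they had medians of 22.6% and 27.6%, with ranges of 9.06% to 201% and 11.0% to 104%. At day 7 Col1a2, Col8a2, Col11a1, Col12a1 and Col23a1 stood above all 7, and Col3a1 was not among them. Markers of immune cells in the label summed to 403 and 2697 cpm, and the part of either list was not tested.

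In endothelial cells, the multiplexins Col15a1 and Col18a1 were at least 2-fold above day 0 on all 3 days after injury. The basement membrane genes Col4a1 and Col4a2 were so at day 5 only, in the library whose ratio of both genes stood apart. Col4a1 was at 592, 621, 2949 and 970 cpm at days 0, 2, 5 and 7, and Col4a2 at 470, 556, 962 and 839. Col15a1 stood at 82.5, 227, 962 and 401 cpm, with log2 ratios to day 0 of 1.46 (1.13 to 1.78), 3.54 (3.25 to 3.83) and 2.28 (2.09 to 2.48). Col18a1 stood at 6.77, 70.5, 63.7 and 57.3 cpm, resting on 21, 37, 11 and 168 UMIs. The label had 1089, 58, 100 and 520 cells. No count of genes is given for the 58 cells of day 2. At day 5, 4 of 17 genes were at least 2-fold higher than at day 0 (11.4% of all genes) and 5 lower (15.6%). The 4 were Col4a1, Col4a2, Col15a1 and Col18a1. At day 7, 3 of 19 were higher (7.08% of all genes) and 11 lower (10%). The 3 were Col15a1, Col18a1 and Col28a1, the last at 1.61 and 5.45 cpm. Without the 5% of cells with the most UMIs, Col4a1, Col15a1 and Col18a1 at day 5 had log2 ratios of 2.25, 3.75 and 3.29, while Col4a2 had 0.92 and was no longer 2-fold higher.

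The lower endothelial genes were mostly fibrillar and beaded ones, and their day 0 level rested on few cells. Col1a1 stood at 400, 30.5, 168 and 119 cpm, Col3a1 at 561, 97.2, 290 and 256 and Col6a1 at 127, 7.62, 5.79 and 20.8. At day 0, the 54 cells with the most UMIs, 5% of the label and 16.4% of its UMIs, held 78.6% of its Col1a1 UMIs and 70.4% of its Col3a1 UMIs. They also held 58.7% of Dcn and 54.6% of Gsn, markers of FAPs. For Col4a1 and Col15a1 their share was 12.7% and 26.6%. Without such cells on both days, Col1a1 stood at 103 cpm at day 0 and 128 at day 7, a log2 ratio of 0.32 in place of -1.75. Genes at least 2-fold lower at day 7 were then 3 of 16, in place of 11 of 19, and at day 5 they were 1 of 15, in place of 5 of 17. Those still lower at day 7 were Col6a1 at -1.35, Col5a3 at -1.37 and Col14a1 at -1.82. At day 5 it was Col6a1 at -3.05, resting on 1 UMI of that day. No share over all genes is given with these cells left out, so the counts have no background. The 7 FAP markers summed to 8229 cpm in the label at day 0 and to 229, 869 and 481 at days 2, 5 and 7, and their part in the lower levels was not tested. No doublet caller was run. Markers of immune cells summed to 652, 10878, 649 and 4493 cpm in the endothelial label.

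**Figure D5:**
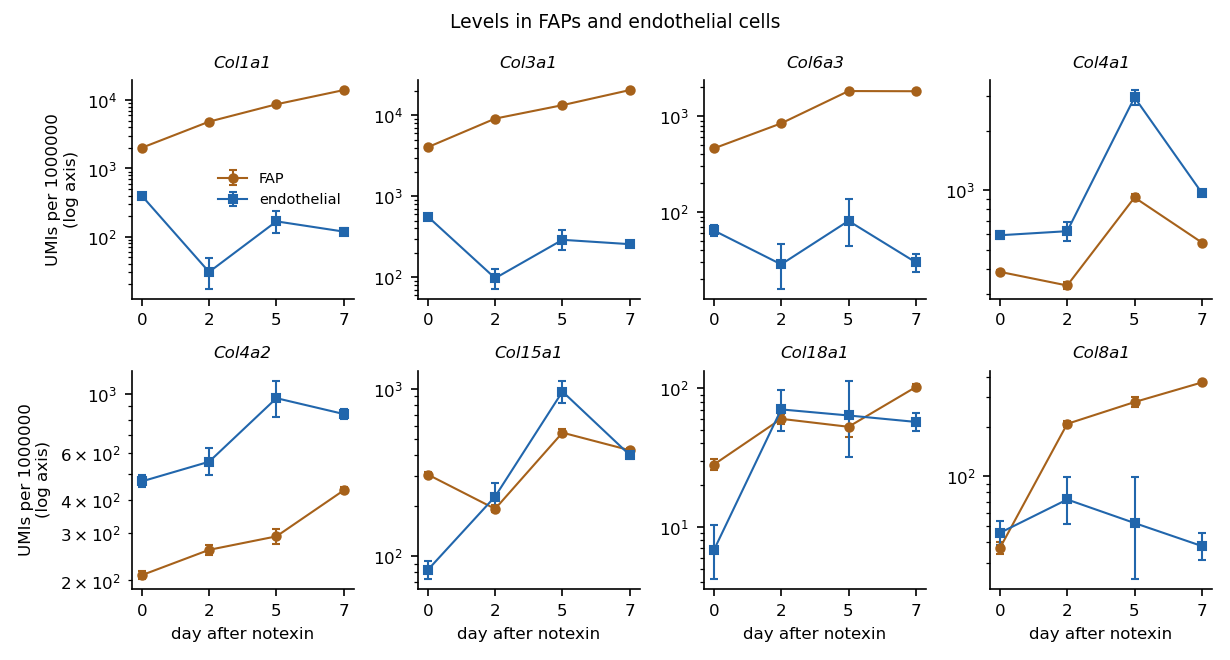
Levels of 8 collagen genes (y axis, cpm, log axis) at days 0, 2, 5 and 7 in FAPs (circles) and endothelial cells (squares), with 95% Poisson intervals of counting error. In FAPs Col1a1 and Col3a1 are higher at each later day, while in endothelial cells they are highest at day 0. Col4a1 and Col15a1 are highest at day 5 in both.

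Muscle stem and progenitor cells (MuSCs) had a low collagen share at day 2 and a higher one at days 5 and 7. The share of UMIs was 0.073% (0.069 to 0.077) in 58 cells, 0.282% (0.253 to 0.313) in 40 cells and 0.412% (0.405 to 0.420) in 396 cells. The median MuSC held 34387, 2524.5 and 5881 UMIs at days 2, 5 and 7. The part of this depth in the shares was not tested. Near the day 5 share were mature skeletal muscle at 0.254% and Macrophages/APCs/T-cells at 0.299% of the same day. Anti-inflammatory macrophages, NK cells and B cells of day 5 were lower, at 0.077%, 0.073% and 0.083%. In MuSCs, Col4a1 stood at 4.59, 268 and 131 cpm and Col4a2 at 4.59, 126 and 105 cpm. Col15a1 stood at 2.3, 70.9 and 65.0 cpm and Col18a1 at 14.4, 15.7 and 53.2. Col26a1 stood at 2.3, 23.6 and 57.5 cpm, the day 7 value being the highest of any label, though its interval (48.9 to 67.1) overlaps that of day 7 tenocytes (25 to 54.4). At day 7, 14 of 30 genes stood above all 7 FAP markers when each was set against its FAP level, Col4a1 at 24.1% and Col12a1 at 48.3% against at most 10.8%. Col1a1, Col1a2 and Col3a1 were not among them, at 5.01%, 8.37% and 5.55%. How many of all genes stood above the FAP markers there was not counted, so 14 of 30 has no background. The markers of muscle progenitors summed to 1474, 1000 and 1856 cpm, and those of immune cells to 1994, 370 and 7943. Of the other lists, some were ordered by day as the collagen share was. FAP markers summed to 278, 874 and 1346 cpm, tenocyte markers to 98.2, 378 and 543 and smooth muscle and pericyte markers to 35.6, 236 and 1094. Glial markers had the same order at 4.02, 7.87 and 12.85 cpm. The part of these lists was not tested.

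Some collagens stood out in labels with few cells, beside the main fibrillar chains. At day 0 Col1a1, Col1a2 and Col3a1 together held 54.0% of collagen UMIs in the neural and glial label and 37.0% in smooth muscle cells. Col20a1, a fibril-associated chain, stood at 556 cpm (476 to 645) in the 71 cells labelled neural, glial and Schwann cells at day 0, with 173 of its 249 UMIs in all cells. The next class was FAPs of day 5 at 3.09 cpm. That label also held markers of mature muscle at 41544 cpm and of FAPs at 19909 cpm, against 3786 for the glial ones. The 76 smooth muscle cells of day 0 held Col4a1 at 566 cpm and Col4a2 at 387. Their smooth muscle and pericyte markers summed to 19450 cpm, FAP markers to 8052.5 and endothelial markers to 2663. The part of the last 2 lists was not tested. The 57 cells labelled platelets at day 0 held 4 platelet markers at 33.0 cpm in sum and 6 endothelial markers at 6381, so the data go against the name. Their leading collagens were Col4a1 at 283 cpm, Col15a1 at 236 and Col4a2 at 217. The label B cells held B cell markers at 1.83 cpm in sum at day 2 and at 0 at day 5, and its collagen share was 0.022% and 0.083%.

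A list of 40 genes that fold, cut, crosslink, bind or degrade collagen was set beside the members. In FAPs 10 of 39 were at least 2-fold higher at day 2 than at day 0 (10.9% of all genes) and 4 lower (14.1%). At day 5, 11 of 39 were higher (10.2% of all genes) and 1 lower (10.3%), and at day 7, 17 of 40 were higher (9.99%) and 4 lower (10.6%). Among folding genes, P4hb, a subunit of the prolyl hydroxylase, stood at 227, 817, 519 and 482 cpm at days 0, 2, 5 and 7. The collagen chaperone gene Serpinh1 stood at 1097, 2426, 1348 and 2348 cpm. For P4ha3, a catalytic subunit of the same hydroxylase, levels were 8.94, 78.8, 38.1 and 48.0 cpm, while its relative P4ha1 stood at 92.7, 68.6, 79.2 and 89.0. Lox, a crosslinking enzyme, was highest at day 2 with 30.5, 459, 299 and 168 cpm. The collagenase gene Mmp13 had 0 UMIs at day 0 and 58.3, 36.3 and 31.8 cpm later, and its log2 ratios to the floor of 3 UMIs were at least 8.31, 7.63 and 7.44. Ctsk, a collagen-cutting cathepsin, stood at 337, 241, 452 and 932 cpm. Lower on all 3 days was Pcolce2, an enhancer of procollagen cutting, with 744, 74.9, 191 and 102 cpm, while Pcolce stood at 1803, 1452, 954 and 2387. The collagen receptor Ddr2 stood at 188, 80.8, 142 and 88.9 cpm. At day 7, 3 of 38 list genes were at least 2-fold higher in the activated FAP label than in the other (5.57% of all genes). There were 9 lower ones (13.6% of all genes), and the median log2 ratio was -0.63, against -0.21 over all genes. The higher ones were Pcolce2, at 534 cpm against 28.2, Ddr2, at 164 against 75.9, and Loxl4. The lower ones were Plod1, Plod2, P3h1, P3h2, P3h3, Adamts3, Adamts14, Itga1 and Itga10. In endothelial cells 0 of 30 list genes were higher at day 5 (11.4% of all genes) and 8 lower (15.6%). At day 7, 1 of 31 was higher (7.08% of all genes) and 13 lower (10%). The day 0 sum of that label includes the 54 cells described above.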

How the data were processed

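Per the labels' protocols, 5 samples were measured with droplet 3' libraries of single cells, of which 2 were runs of day 0 that share 1 matrix. Cell Ranger 2, Seurat 2.3.4, the genome build mm10 and R 3.6.2 are given in the submitters' processing notes. Raw tables as deposited hold UMI counts, and they list a gene if it was seen in 3 or more barcodes. In the authors' normalized tables each count was divided by its cell's sum, multiplied by 10000, raised by 1 and put on a natural log scale, as recomputed here from the counts. Cell labels were the authors' deposited annotation. Unlabelled barcodes (14, 21, 13 and 9) enter no main value. Days follow the sample labels, because the injury column of each table reads day 0.

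Counts were summed over the cells of a label and day (Python 3.11.15, numpy 2.4.6, scipy 1.17.1, pandas 2.3.3). Levels carry exact Poisson intervals, shares Clopper-Pearson intervals and log2 ratios the exact binomial interval of the split of the counts, all at 95%. A count of 0 got a floor of 3 counts over the group in ratios. Genes were called higher or lower past 2-fold among those with at least 20 UMIs over both groups, and all genes under the same rule are the background. The median cell held 3832.5, 9683, 2018 and 5991 UMIs at days 0, 2, 5 and 7. Thinning drew 1000 UMIs per cell (seed 1), and 1 shallower cell of day 5 was left out. Named genes had at least 50 cpm in 1 group, with the 8 largest and 6 smallest ratios and fibrillar or basement membrane genes of at least 500 cpm, and where 5 or fewer genes were called, rarer ones were named after their values were seen. The members and lists were chosen with earlier results of these data known. Symbols were matched to RefSeq by name. Alternatives are given in the closing section. The calculation of the ratios was tested on simulated data, which does not bear on the lack of replicates.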

Additional observations from a re-analysis of the deposited data

Results flagged for a closer look

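Several collagen genes stood on opposite sides of day 0 in FAPs and endothelial cells, as long as all cells were kept. At day 5 against day 0, the FAP log2 ratio minus the endothelial one was 3.37 for Col1a1, 3.21 for Col1a2 and 3.91 for Col5a1. At day 7 it was 4.56 for Col1a1, 3.81 for Col1a2, 3.48 for Col3a1, 3.40 for Col5a1, 3.03 for Col5a2, 3.08 for Col6a3 and 3.45 for Col27a1. Each gene was at least 2-fold higher in FAPs and at least 2-fold lower in endothelial cells. There was 1 library per day, so the differences were not tested. Without the 5% of endothelial cells with the most UMIs, none of these genes that could be compared was 2-fold lower there. Col1a1 and Col1a2 then had log2 ratios of 0.71 and 0.44 at day 5 and 0.32 and 0.26 at day 7, so their direction turned. At day 7, Col3a1, Col5a2 and Col6a3 turned too, at 0.40, 0.048 and 0.071. Col5a1 had -0.49 at day 5 and -0.77 at day 7, and Col27a1 had too few UMIs to compare.

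Barcodes that the authors left without a label also held collagen UMIs. Their share of UMIs was 0.298% (0.257 to 0.345) in 14 barcodes at day 0 and 0.188% (0.179 to 0.197) in 21 at day 2. In the 13 of day 5 it was 2.3% (2.23 to 2.38), and in the 9 of day 7 it was 0.450% (0.412 to 0.490). These barcodes were not used in any comparison.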

How the results depend on the processing

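No paired analysis was possible because each day has a single matrix, and the runs of day 0 are not separated in it. Leaving out a replicate was not possible either. Depth limits the small labels, such as muscle progenitors of day 5 with 127030 UMIs and endothelial cells of day 5 with 172583, and genes under 20 UMIs over both groups were not compared.

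The collagen share of FAP UMIs at day 0 was 1.24% after thinning, 1.24% as a mean over cells, 1.29% over the UMIs of other genes and 1.25% without the 5% of cells with the most UMIs. In the same order it was 2.66%, 2.67%, 2.66% and 2.65% at day 2, 3.40%, 3.37%, 4.20% and 3.75% at day 5, and 5.43%, 5.43%, 5.87% and 5.65% at day 7.

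After thinning, 2 FAP genes were lower at day 2 and 1 at day 5 against day 0, of 24 tested each, and 1 of 23 was lower from day 5 to 7. In endothelial cells 2 of 14 were then lower at day 5 and 5 of 15 at day 7, in tenocytes 5 of 16 were higher, and in the activated label 1 of 21 was higher. Fewer genes pass the minimum after thinning. With each cell weighted equally, 5 FAP genes were higher and 2 lower from day 5 to 7, and 2 and 6 endothelial genes were lower at days 5 and 7. Without the 5% of cells with the most UMIs, 1 of 15 and 3 of 16 endothelial genes were lower at days 5 and 7. With at least 50 UMIs, 1 FAP gene was higher from day 5 to 7 and 1 tenocyte gene was lower. At 1.5-fold, 14 FAP genes were higher and 1 lower from day 2 to 5, 6 higher and 9 lower from day 5 to 7, 5 endothelial genes were higher at day 7, and 6 tenocyte genes were lower. No share over all genes is given under these alternative settings, so the counts have no background and only show how the calls move.

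Reversals were found mostly in endothelial cells, where the cause was not tested beyond the cells left out. At day 5 against day 0, Col1a1 had 0.074 as a mean over cells, 0.71 without the cells with the most UMIs and 0.10 on the authors' normalized scale (a difference of mean natural logs), and Col1a2 had 0.44 and 0.0599 on the last 2. At day 7, thinning gave 0.015 for Col3a1 and 0.20 for Col6a3. Without the cells with the most UMIs the median was 0.27, Col1a1 0.32, Col1a2 0.26, Col3a1 0.40, Col5a2 0.048 and Col6a3 0.071. On the normalized scale the median was 0.004, Col1a1 0.13, Col1a2 0.058, Col3a1 0.29 and Col5a2 0.0044. In FAPs from day 2 to 5, Col16a1 had -0.0199 on the normalized scale.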
